A study of Mus musculus with 7 samples.

Results

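Splicing factor and hnRNP genes were taken as the genes of 5 name families: the SR proteins (symbols beginning with Srsf and a digit), the heterogeneous nuclear ribonucleoproteins or hnRNPs (Hnrnp), the subunits of splicing factors 3a and 3b (Sf3a and Sf3b), the core and U1 or U2 proteins of the spliceosomal particles (Snrp), and the pre-mRNA processing factors (Prpf). The rule found 59 genes among 18193 on the array: 10 Srsf, 19 Hnrnp, 9 Sf3, 9 Snrp and 12 Prpf genes. They were read by 171 of 45037 probe sets, a probe set being a group of short oligonucleotides that together measure 1 transcript target. A probe set counted only where the array annotation gave it a single gene, and 16 further probe sets that name a member together with another gene were left out. Of the 59 genes, 43 had more than 1 probe set, with a maximum of 7, and the representative of a gene was whichever of these averaged highest over all arrays.

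The arrays measured RNA from the left lungs of mice aged 8 weeks. One group was the Gata5 knockout, called KO here (3 mice), and the other was wild type, WT (4 mice), with 1 Affymetrix mouse genome expression array per mouse. The labels call the mice of a group biological replicates, so the p-values measure the spread between mice. For the strain, the exons removed and any limit of the deletion to a cell type, the sources used here give nothing. Whole lung holds many cell types, so fewer cells of a type and less RNA per cell cannot be told apart. Levels are log2 values as deposited, and a change is the KO mean minus the WT mean.

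Gata5 itself was lower in KO at 1450126_at, with a mean of 4.95 ± 0.22 (SD, n = 3) against 5.54 ± 0.22 (SD, n = 4), and at 1450125_at the change of -0.26 did not pass (limma adjusted p = 0.0336 and 0.0993, from a fit without a level filter because both lie under it). Of 12 lung markers all were above the level needed for testing, and 1, Pecam1, was called between the groups, lower in KO. Sftpc, a surfactant protein of type II alveolar cells, lay between 14.00 and 14.05 in KO and between 14.10 and 14.20 in WT. The surfactant protein Sftpb lay at 10.15 to 11.32 in KO and at 11.51 to 11.72 in WT. Sftpa1, another surfactant protein, lay at 13.02 to 13.12 in KO and at 13.08 to 13.53 in WT. WT replicate 4 differed in sex-linked transcripts. Xist, transcribed from the inactive X chromosome of females, stood there at 11.51 at 1427262_at, against at most 3.89 elsewhere, and the Y-linked Eif2s3y at 3.71 at 1417210_at, against at least 9.30. The beta-actin control probe sets showed a wider gap between the 3′ and 5′ ends of the transcript in KO, 4.74 to 5.39 against 3.88 to 4.31 in WT, and the Gapdh 3′ end exceeded its middle by 3.85 to 4.31 against 3.33 to 3.68. Neither control overlapped between the groups, and each had an exact two-sided permutation p of 0.0286, the smallest that 35 splits allow. Such gaps are a measure of RNA quality and labelling, which can touch probe sets far from the 3′ end.

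Splicing removes introns from pre-mRNA. Small nuclear particles built on rings of Sm proteins mark the splice sites, SF3a and SF3b hold the U2 particle on the branch point, and Prpf proteins assemble and drive the later complexes. SR proteins mostly bind exons and favour their inclusion, while hnRNPs coat the pre-mRNA and often oppose it. Many SR and hnRNP genes control their own output through alternative exons or retained introns that send the transcript to decay, so transcript forms of a single gene can move apart.

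In the gene-level comparison 12 of 56 tested members passed (limma, Benjamini-Hochberg adjusted p under 0.05 over all genes), 21.4%, where 15.6% of all 13285 tested genes did. Snrpd3, Hnrnpd, Srsf6, Sf3a2, Hnrnpr, Hnrnpdl and Hnrnpa1 were higher in KO. These 7 make 12.5% of the tested members, against 5.56% of all genes. Hnrnpm, Prpf4, Srsf3, Hnrnpul2 and Srsf9 were lower, 5 members or 8.93%, against 10.0% of all genes. The changes were small, and no member reached 1.5-fold.

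The 3 members not tested, Hnrnpl, Snrpn and Srsf12, had means below the level filter of 5.47. Across the tested members the median log2 change was -0.036, with -0.003 over all genes, and the median size of the change regardless of sign was 0.154, with 0.144 over all genes. KO and WT arrays did not overlap for 22 members, 39.3%, against 29.6% of all genes. The higher and lower counts depend on how the arrays are scaled: a further quantile normalization gave 12 higher and 2 lower, with 8.98% and 6.79% of all genes. They also depend on the probe set read. Averaging all probe sets of a gene gave 10 called members, of which 3 were higher, with 4.08% of all genes higher and 9.8% lower. The count of lower members fell to 1 without KO replicate 3 and to 2 when replicate 1, 3 or 4 of the WT group was left out. Of all genes 5.16% were lower without KO replicate 3, and 5.23%, 5.65% and 4.55% without those WT replicates. With either control gap as a further term in the fit 0 members passed (limma; 0 and 5 of all genes), and all 12 kept their direction.

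**Figure D1:**
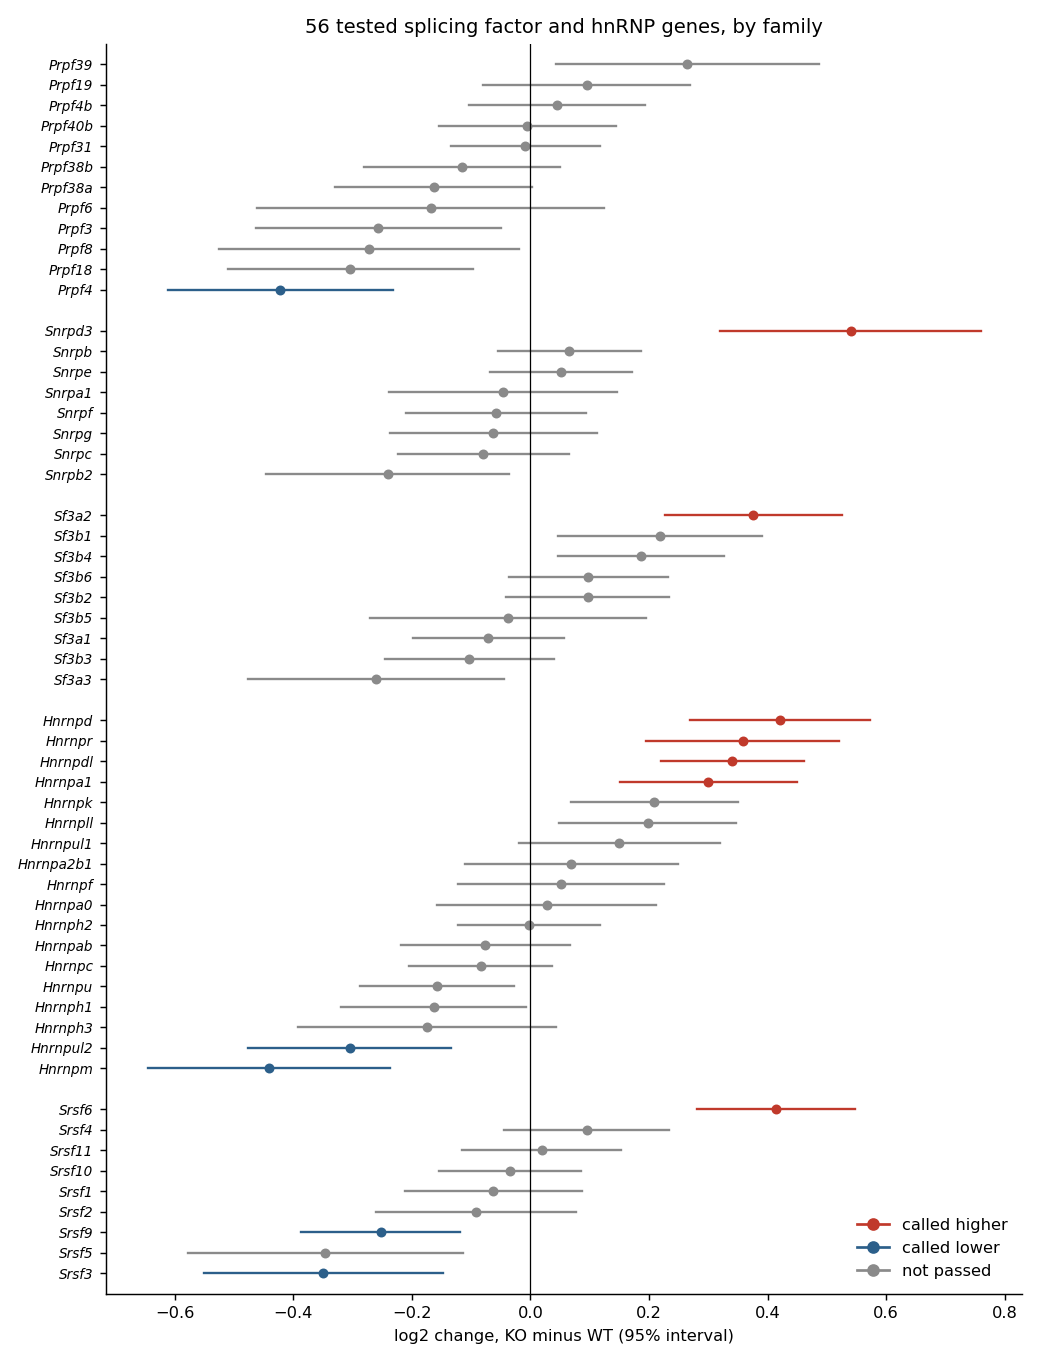
Log2 change from WT to KO (horizontal axis) with its 95% interval for each of the 56 tested genes (vertical axis), grouped by family and coloured by call. The changes lie between -0.44 for Hnrnpm and 0.54 for Snrpd3, and every family holds genes on both sides of 0.

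GATA factors bind short DNA motifs, so the promoters of the members were examined, using RefSeq windows of the 250 bases before each annotated start (mouse assembly GRCm38.p6). There were 72 windows for 53 of the 59 members. A GATA motif, meaning AGATAA or AGATAG or TGATAA or TGATAG on either strand, was present in 11 of the 72 windows, 15.3%, against 26.5% of all 32851 windows. The members' windows had a median GC content of 59.6%, against 52.4% for all windows. The ETS motif CCGGAAG, on either strand, was present in 29.2% of the members' windows and 6.91% of all windows. Motif CCAAT was present in 47.2% and 33.8%, and TATAAA in 6.94% and 12.4%. These matches are descriptions of letters, not of binding.

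Of the members called in either direction, Hnrnpr alone had a GATA match, in the second of its windows, and none of the 4 windows found for members called lower had one. An ETS match was present for 2 of the called members, Hnrnpd and Sf3a2. Given here are the GATA match of Hnrnpr, the ETS match of Hnrnpd, and the window of Srsf6, the member with the smallest p, which has neither. Capitals mark GATA and ETS matches.
Hnrnpr, chr4:136311348-136311597, plus strand: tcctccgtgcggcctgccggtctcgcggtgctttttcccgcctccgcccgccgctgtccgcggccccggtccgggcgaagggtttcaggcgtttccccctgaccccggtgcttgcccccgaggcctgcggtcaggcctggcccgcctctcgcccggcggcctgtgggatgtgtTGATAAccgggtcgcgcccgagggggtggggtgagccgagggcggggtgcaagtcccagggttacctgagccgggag
Hnrnpd, chr5:99978939-99979188, minus strand: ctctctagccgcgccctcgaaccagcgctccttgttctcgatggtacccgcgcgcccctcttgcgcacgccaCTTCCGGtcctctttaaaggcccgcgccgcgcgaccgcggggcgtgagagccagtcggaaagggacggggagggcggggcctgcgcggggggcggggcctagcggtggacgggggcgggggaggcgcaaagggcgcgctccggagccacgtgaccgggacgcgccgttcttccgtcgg
Srsf6, chr2:162931258-162931507, plus strand: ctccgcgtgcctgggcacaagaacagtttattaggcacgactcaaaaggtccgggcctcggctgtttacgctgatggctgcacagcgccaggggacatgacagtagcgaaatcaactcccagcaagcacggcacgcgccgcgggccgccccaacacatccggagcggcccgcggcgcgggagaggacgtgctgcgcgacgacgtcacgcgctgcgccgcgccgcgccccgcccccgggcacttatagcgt

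Among the SR proteins, 1 of 9 tested members was higher in KO and 2 were lower. Srsf6, which binds exonic enhancers, stood at 12.01, 11.96 and 12.06 on the KO arrays and at 11.61, 11.65, 11.59 and 11.53 on the WT arrays, a log2 change of 0.41 ± 0.06 (SE; limma adjusted p = 0.00761). All KO arrays were above all WT arrays. Srsf3, the smallest SR protein and also an adaptor for mRNA export, stood at 11.08, 11.09 and 11.17 in KO and at 11.42, 11.29, 11.66 and 11.48 in WT (log2 change -0.35 ± 0.09; adjusted p = 0.0337). Srsf9, a regulator of alternative splice sites, stood at 8.22, 8.25 and 8.19 in KO and at 8.48, 8.39, 8.54 and 8.48 in WT (log2 change -0.25 ± 0.06; adjusted p = 0.0266). Both genes were lower on every KO array than on any WT array. Leaving out 1 array ended the call of Srsf3 in 6 of 7 cases and of Srsf9 in 5 of 7, with adjusted p up to 0.0824 and 0.0692, and the call of Srsf6 in none.

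Srsf5, another SR protein, lay just outside the threshold. Its levels were 10.53, 10.20 and 10.25 in KO and 10.84, 10.60, 10.55 and 10.70 in WT. The KO arrays were all lower, but the highest KO array nearly met the lowest WT array, and the change of -0.35 ± 0.10 had an adjusted p of 0.0517. In the fit over all probe sets the same probe set was called lower (adjusted p = 0.0496), and it is counted there. The other SR members, Srsf1, Srsf2, Srsf4, Srsf10 and Srsf11, differed by -0.09 to 0.10 at the representative probe set, and none passed.

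The hnRNPs held 6 of the 12 calls: 4 of 18 tested members were higher and 2 lower. Hnrnpd, or AUF1, binds AU-rich elements and sets the decay of their mRNAs, and it stood at 11.34, 11.24 and 11.27 in KO and at 10.78, 10.83, 10.98 and 10.86 in WT (log2 change 0.42 ± 0.07; adjusted p = 0.00864). Its relative Hnrnpdl stood at 13.17, 13.23 and 13.18 in KO and at 12.85, 12.87, 12.87 and 12.82 in WT (log2 change 0.34 ± 0.05; adjusted p = 0.0084). In both, the KO arrays lay above the WT arrays by more than either group's own range. Hnrnpr, a relative of Syncrip, stood at 11.62, 11.51 and 11.68 in KO and at 11.27, 11.21, 11.35 and 11.15 in WT (log2 change 0.36 ± 0.07; adjusted p = 0.016). Hnrnpa1, which binds splicing silencers, stood at 11.12, 11.30 and 11.27 in KO and at 10.89, 10.89, 10.97 and 10.97 in WT (log2 change 0.30 ± 0.07; adjusted p = 0.0219). The groups did not overlap in either gene, but leaving out KO replicate 3 or WT replicate 1 ended the call of Hnrnpa1 (adjusted p up to 0.0615).

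Hnrnpm, which regulates alternative exons, stood at 8.88, 9.0 and 8.86 in KO and at 9.28, 9.19, 9.42 and 9.53 in WT (log2 change -0.44 ± 0.09; adjusted p = 0.0169). Hnrnpul2, a relative of the chromatin-associated Hnrnpu, stood at 10.57, 10.48 and 10.33 in KO and at 10.74, 10.71, 10.74 and 10.87 in WT (log2 change -0.31 ± 0.07; adjusted p = 0.031). All KO arrays were the lower ones in both genes. Leaving out KO replicate 3 ended the call of Hnrnpm (adjusted p = 0.0555), and leaving out any of 5 arrays ended that of Hnrnpul2 (adjusted p up to 0.0804). The 12 other tested hnRNPs did not pass, among them Hnrnpk at 0.21 ± 0.06 (adjusted p = 0.053) and Hnrnpll, a regulator of lymphocyte splicing, at 0.20 ± 0.07 (adjusted p = 0.0747).

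Of the 9 SF3 subunits only Sf3a2 passed. This SF3a subunit stood at 11.32, 11.23 and 11.39 in KO and at 11.00, 10.85, 10.94 and 10.96 in WT (log2 change 0.38 ± 0.07; adjusted p = 0.0105). The groups were separate, and the call held whichever array was left out. Its partners were not called: Sf3a1 changed by -0.07 ± 0.06 (adjusted p = 0.384) and Sf3a3 by -0.26 ± 0.09 (adjusted p = 0.0939). Sf3b1, the subunit that clamps the branch point, had a change of 0.22 ± 0.08 (adjusted p = 0.0818) with every KO array above every WT array.

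Among the 8 tested Snrp genes, Snrpd3 passed. It encodes a protein of the Sm ring shared by the U1, U2, U4 and U5 particles, and its representative probe set stood at 7.58, 7.53 and 7.45 in KO and at 7.02, 6.74, 7.01 and 7.15 in WT. The change of 0.54 ± 0.10 (adjusted p = 0.0113) was the largest of any member and left the groups apart. Another probe set of the gene moved the other way, as described with the probe sets. The ring partners tested as members, Snrpb, Snrpe, Snrpf and Snrpg, differed by -0.06 to 0.07 and did not pass. Snrpd1 and Snrpd2 were each read by a probe set that also names a gene model, so they were not counted. Those sets changed by -0.41 (limma adjusted p = 0.0163) and -0.22 (adjusted p = 0.0569). The U2 protein Snrpb2 had a change of -0.24 ± 0.09 (adjusted p = 0.1).

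Prpf4, a protein of the U4/U6 particle, was the single call among the 12 Prpf genes. It stood at 7.08, 6.79 and 6.99 in KO and at 7.48, 7.35, 7.38 and 7.29 in WT (log2 change -0.42 ± 0.08; adjusted p = 0.0153), with the groups apart. Its partner in that particle, Prpf3, had a change of -0.26 ± 0.09 (adjusted p = 0.0868), and the U5 core protein Prpf8 one of -0.27 ± 0.11 (adjusted p = 0.123), with overlapping groups in both. The median change of the 12 genes was -0.14, the lowest of the families, and 3 of the 12 had a positive change. The largest positive change was that of Prpf39, a factor of the U1 particle (0.26 ± 0.10; adjusted p = 0.0973).

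**Figure D2:**
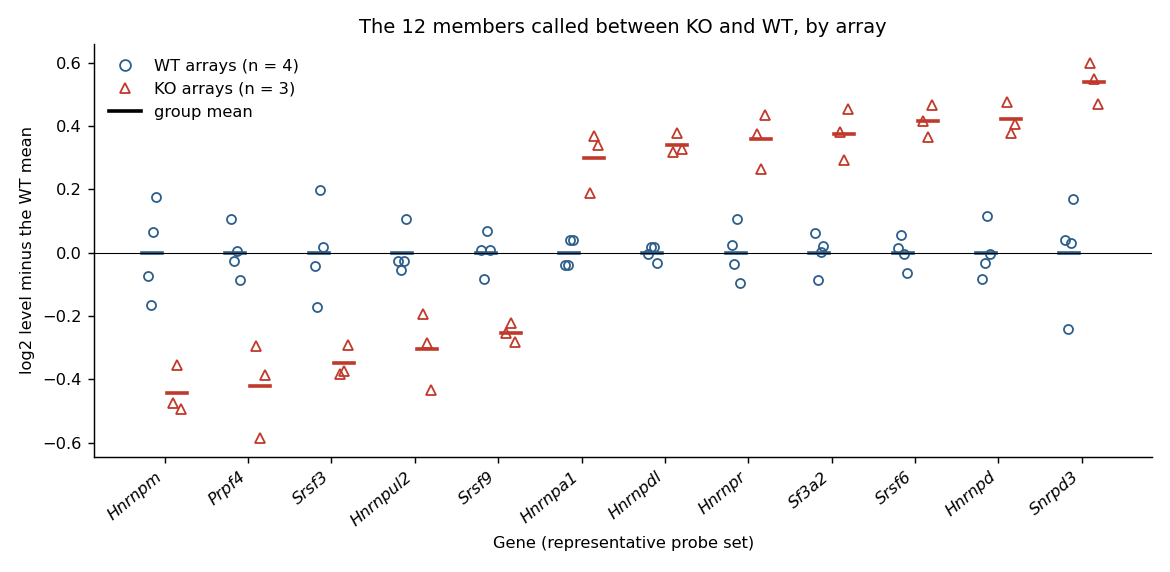
Log2 level of each array minus the WT mean (vertical axis) for the 12 called genes (horizontal axis), with circles for the 4 WT arrays, triangles for the 3 KO arrays and bars for the group means. KO and WT points do not overlap for any of the 12 genes, and the mean changes run from -0.44 to 0.54.

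Probe sets of the same gene were then compared, since those of the splicing regulators often read different transcript forms. Which form, exon or intron each probe set reads was not stated in the sources used here, so no member was assigned a retained intron. Of 149 member probe sets over the level filter, 37 passed, 24.8%, against 17.5% of all 27023 probe sets. Those higher in KO were 15, 10.1% against 5.65%, and those lower were 22, 14.8% against 11.8%. The lower count was 11 without KO replicate 3, 13 without WT replicate 1 or WT replicate 3 and 10 without WT replicate 4. Calls of lower genes fell over the whole array too: in the gene-level fit 4.55% to 5.65% of all genes were lower in these runs, against 10.0% with all arrays. In either direction, 35.6% to 41.6% of member probe sets had an unadjusted p under 0.05 (limma) in these runs. Over all probe sets the shares were 29.2% to 30.6%. At least 1 probe set was called for 24 members, and for 11 of them every call lay on a probe set other than the representative.

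For each further probe set the log2 difference from the gene's representative was taken on every array and compared between the groups. Of 93 such differences, 40 passed, 43% against 33.6% of 9135 over all genes. They fell in 28 of 40 members, where the calls over all genes fell in 2447 of 5603. The members had more further probe sets per gene than all genes, which gives more chances of a call. In 32 the other probe set was lower in KO relative to the representative, 34.4% against 21.0% over all genes, and in 8 it was higher, 8.6% against 12.6%. The call held whichever array was left out for 18 of the 40. The count was 25 without KO replicate 3, 26.9% against 23.8% over all genes. It was 24 without WT replicate 2, 25.8% against 26.7%, and 23 without WT replicate 4, 24.7% against 24.7%. By construction the representative has the highest mean over the 7 arrays, so most of these differences set a dimmer probe set against a brighter one. In Snrpd3 the order of the 2 depended on the group, as described below. The excess over all genes also depended on level. With the level filter at the 60th percentile 32 of 72 differences passed, 44.4% against 42%. At an unadjusted p under 0.05 (limma) the shares there were 51.4% and 51.7%.

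Pairs were also sorted by the sequence record that the annotation names for each probe set. Of 14 pairs with the same record 7 passed, 50% against 34.4% over all genes. Of 52 with different records 19 passed, 36.5% against 32.3%, and of 27 with no record for at least 1 probe set 14 passed, 51.9% against 37.1%. KO and WT arrays do not overlap in the control gap between the 3′ and 5′ ends, so genotype and that gap cannot be told apart. With the beta-actin gap as a further term, all 40 differences kept their direction, at a median of 105% of their size and a range of 0.85% (Prpf39) to 176%. None passed (0 of 9135 over all genes), and 19 of the 93 had an unadjusted p under 0.05 (limma), 20.4% against 20.6% over all genes. With the Gapdh gap in its place 0 passed and 26 did so, 28% against 24.9%. In the 5 mice with the lowest label numbers, 3 KO and 2 WT, all 40 kept their direction and 9 of the 93 passed, 9.68% against 11.9% over all genes.

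**Figure D3:**
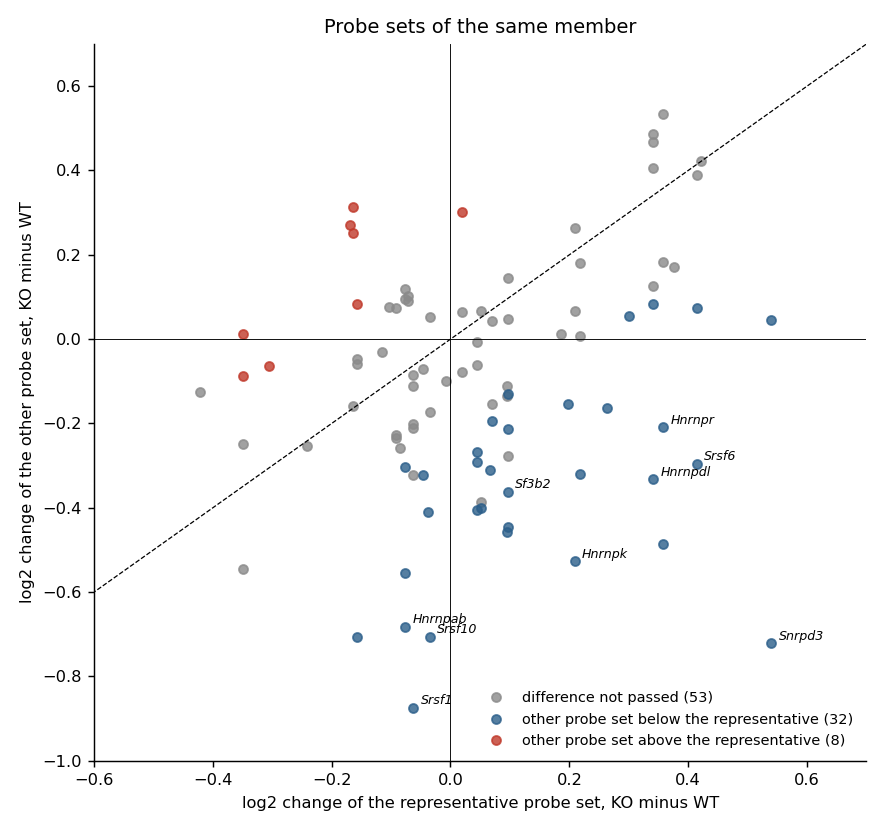
Log2 change of the other probe set (vertical axis) against that of the representative (horizontal axis) for the 93 pairs, with KO minus WT on both axes and the dashed line marking equal changes. The 32 called pairs in blue lie below the line, the 8 in red above it, and the genes of the 9 pairs with the smallest p-values are named.

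In 4 members, Snrpd3, Hnrnpdl, Hnrnpk and Srsf6, 1 probe set was called higher and another lower, 10% of the 40 members with at least 2 tested probe sets, against 2.21% of 5603 genes. These shares are not matched for the number of probe sets. The 40 members had 93 beyond the representatives and the 5603 genes 9135, and more probe sets per gene give more chances of opposite calls. In Snrpd3 the representative 1449629_s_at rose by 0.54, while 1422884_at stood at 6.92, 6.68 and 6.72 in KO and at 7.63, 7.49, 7.59 and 7.27 in WT, a log2 change of -0.72 ± 0.10 (limma adjusted p = 0.00531). All KO arrays were above all WT arrays at the first and below them at the second. The difference between them was -1.26 ± 0.14 (adjusted p = 0.00106), the largest of the 93. On the KO arrays 1422884_at lay 0.66 to 0.85 below the representative, and on the WT arrays 0.12 to 0.75 above it. Which of them averaged highest, and so stood for the gene, therefore rested on the KO arrays. The third, 1422885_at, which shares its record with 1422884_at, changed by 0.04 ± 0.09 (adjusted p = 0.737). When the probe sets of Snrpd3 were averaged the change of the gene became -0.05 (adjusted p = 0.638), so its direction rests on which probe set is read.

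Hnrnpdl had 7 tested probe sets, of which 4 were called higher and 1 lower. The lower one, 1428225_s_at, stood at 8.17, 8.42 and 8.43 in KO and at 8.69, 8.67, 8.64 and 8.69 in WT (log2 change -0.33 ± 0.08; adjusted p = 0.0232). Its neighbour 1428224_at, designed on the same record, stood at 9.23, 9.38 and 9.36 in KO and at 8.94, 8.77, 8.99 and 8.97 in WT (log2 change 0.41 ± 0.08; adjusted p = 0.0117). Neither overlapped between the groups, and they moved in opposite directions. The lower probe set differed from the representative by -0.67 ± 0.09 (adjusted p = 0.00176), whichever array was left out, although its own call was lost without WT replicate 1 or WT replicate 4.

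Hnrnpk, a KH-domain protein that binds C-rich RNA, was not called at its representative 1460547_a_at. At 1448176_a_at the levels were 11.65, 11.26 and 11.54 in KO and 12.07, 12.02, 11.89 and 12.06 in WT (log2 change -0.53 ± 0.10; adjusted p = 0.0115). At 1454692_x_at, which shares the representative's record, they were 11.33, 11.19 and 11.35 in KO and 11.04, 11.01, 11.09 and 10.97 in WT (log2 change 0.26 ± 0.07; adjusted p = 0.0307). The KO arrays were separate from the WT arrays in both, below them in the first and above them in the second. The difference of 1448176_a_at from the representative was -0.74 ± 0.10 (adjusted p = 0.00181), and the higher call was lost in 6 of 7 cases when 1 array was left out.

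In Srsf6 the representative 1447898_s_at and 1416721_s_at were higher in KO, the latter at 11.15, 11.24 and 11.06 against 10.83, 10.78, 10.72 and 10.71 in WT (log2 change 0.39 ± 0.07; adjusted p = 0.00919). At 1448454_at the levels were 10.51, 10.75 and 10.77 in KO and 10.96, 10.89, 10.97 and 11.07 in WT (log2 change -0.30 ± 0.08; adjusted p = 0.042). The groups were apart in both, but leaving out any of the 7 arrays ended the second call. The difference of 1448454_at from the representative, -0.71 ± 0.10 (adjusted p = 0.00215), kept its call each time.

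**Figure D4:**
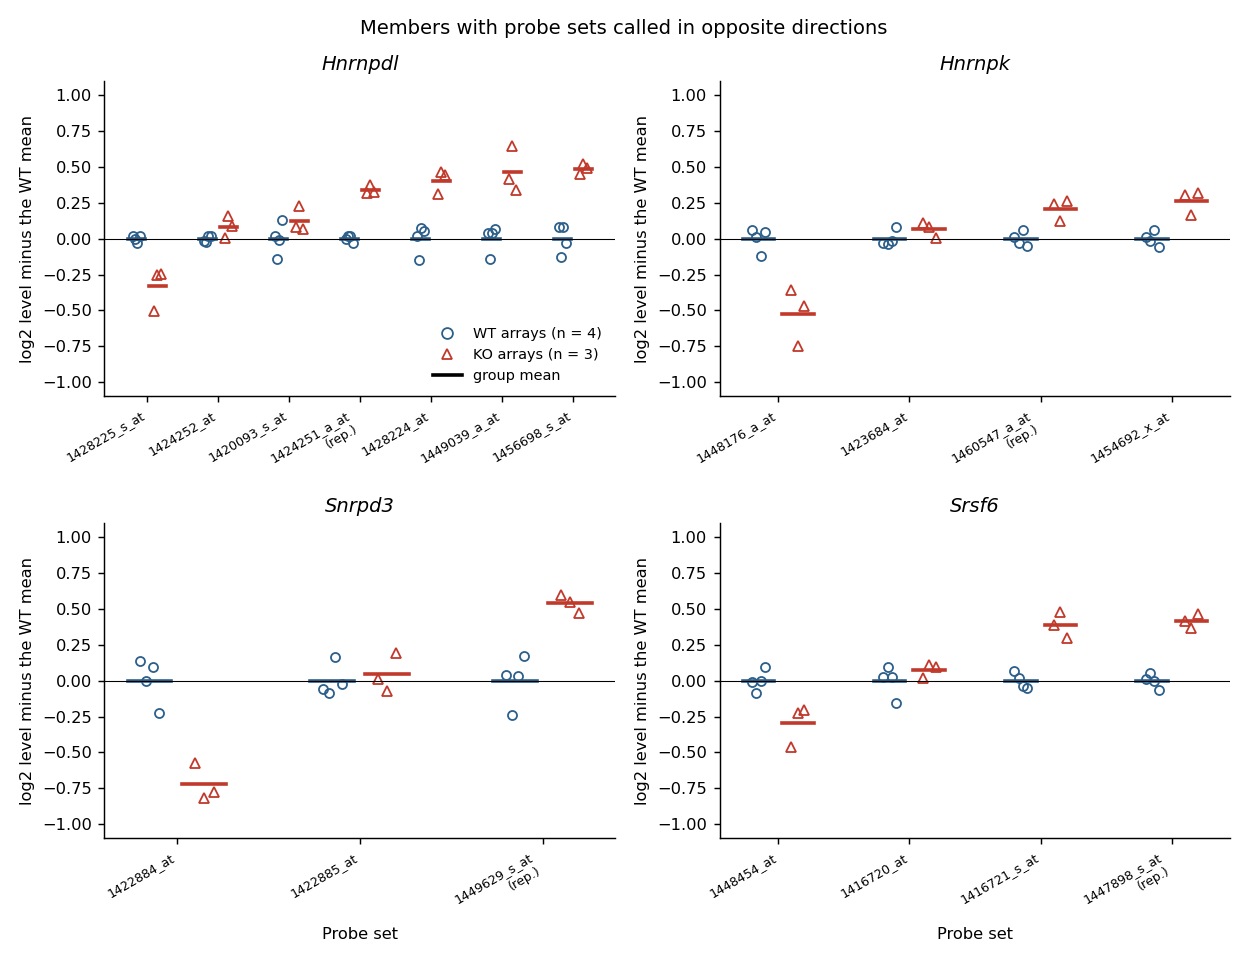
Log2 level of each array minus the WT mean (vertical axis) for every tested probe set (horizontal axis) of Hnrnpdl, Hnrnpk, Snrpd3 and Srsf6, with circles for WT arrays, triangles for KO arrays, bars for group means and the representative marked. In each gene at least 1 probe set has all KO arrays below all WT arrays and at least 1 has them all above.

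Srsf1 and Srsf10 each had a single probe set whose difference from the representative was called. Srsf1, the SR protein SF2/ASF, showed no call at its representative (log2 change -0.06 ± 0.07), but 1430982_at stood at 7.26, 7.37 and 7.48 in KO and at 8.10, 8.24, 8.28 and 8.36 in WT (log2 change -0.88 ± 0.08; adjusted p = 0.00198). This was the member probe set with the smallest p, and its difference of -0.81 ± 0.09 (adjusted p = 0.000953) held whichever array was left out. In Srsf10, a splicing repressor, 1418527_a_at stood at 5.77, 6.26 and 5.99 in KO and at 6.76, 6.89, 6.65 and 6.55 in WT (log2 change -0.71 ± 0.12; adjusted p = 0.00943). The representative of Srsf10 changed by -0.03 ± 0.05, and the difference was -0.67 ± 0.13 (adjusted p = 0.00613). In both genes every KO array was below every WT array at the dimmer probe set.

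Srsf3 and Srsf11 differed the other way. The representative of Srsf3 was lower in KO and so was 1416152_a_at (log2 change -0.54 ± 0.13; adjusted p = 0.0279). By contrast 1434512_x_at changed by 0.01 ± 0.10, a difference of 0.36 ± 0.08 from the representative (adjusted p = 0.00802). At 1454993_a_at the change was -0.09 and the difference 0.26 ± 0.08 (limma adjusted p = 0.0251). In Srsf11 the probe set 1427269_at stood at 10.14, 10.33 and 10.29 in KO and at 10, 9.82, 10.05 and 9.94 in WT (log2 change 0.30 ± 0.08; adjusted p = 0.0344). It was higher in every KO array, whereas the representative, built on the same record, changed by 0.02 ± 0.06.

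Among the hnRNPs, Hnrnpab had 3 probe sets called lower beside an uncalled representative. The strongest, 1453849_s_at, stood at 7.63, 7.58 and 7.27 in KO and at 8.04, 8.11, 8.22 and 8.33 in WT (log2 change -0.68 ± 0.11; adjusted p = 0.00684). In Hnrnpu, 1450849_at stood at 6.56, 6.46 and 6.06 in KO and at 7.29, 6.83, 7.15 and 7.0 in WT (log2 change -0.71 ± 0.14; adjusted p = 0.0146). No KO array reached the WT range in either. Hnrnpr was higher at its representative and at 1429232_at (log2 change 0.53 ± 0.09; adjusted p = 0.00761), and Hnrnpd was higher at both of its tested probe sets, with 0.42 ± 0.09 (adjusted p = 0.0203) at 1457568_at. By contrast 1452030_a_at of Hnrnpr had a change of -0.49 ± 0.19 that did not pass (adjusted p = 0.106), and its difference from the representative did (-0.84 ± 0.18; adjusted p = 0.00722).

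Further differences of the hnRNPs passed at smaller sizes. The other probe set was relatively lower in KO in Hnrnpf, Hnrnpa2b1, Hnrnpll and Hnrnpa1, by -0.45, -0.26, -0.35 and -0.24, and relatively higher in Hnrnph1 and Hnrnpul2, by 0.42 and 0.24. In the core machinery it was relatively lower in Sf3b1, Sf3b2, Sf3b5 and Sf3b6, where the differences ran from -0.54 to -0.23. The same held for Snrpa1 and Snrpb, at -0.28 and -0.38, and for Prpf19, Prpf39 and Prpf4b, at -0.55 to -0.31. It was relatively higher for Prpf38a and Prpf6, by 0.48 and 0.44. Only Sf3b2, Sf3b5, Snrpb, Prpf4b and Hnrnpf of these had such a probe set that was itself called, and lower in each case. In this paragraph the differences of Sf3b6, Prpf19, Prpf38a and 1456352_a_at of Sf3b2 kept their call whichever array was left out, and the others lost it in at least 1 case. Leaving out KO replicate 3 brought the difference to -0.28 in Hnrnpf, -0.33 in Sf3b1, -0.29 at 1425497_a_at of Prpf4b and -0.35 at 1429362_a_at of Sf3b2, and leaving out KO replicate 2 brought that of Prpf39 to -0.28.

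Suffixes of the probe set names tell how specific they are: _s_at and _x_at mark sets that can bind transcripts of several genes. Of 22 tested member probe sets ending in _s_at, 5 were called higher and 2 lower, 22.7% and 9.09%, against 6.61% and 14.6% of all such probe sets. Of 18 ending in _x_at, 2 were higher and none lower, where 12.1% and 4.26% of all were. Of 30 ending in _a_at, which read several transcripts of 1 gene, 4 were higher and 10 lower, 13.3% and 33.3% against 4.13% and 17.8%. Of 79 with no such letter 4 were higher and 10 lower, 5.06% and 12.7% against 5.26% and 11.4%. The representatives of Srsf6, Snrpd3, Sf3a2 and Hnrnpr carry one of the less specific endings. Without the _s_at and _x_at sets 8 of 109 member probe sets were called higher, 7.34% against 4.95% of all, and 11 of 34 differences passed, 32.4% against 29.4%.

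Other genes of the splicing pathway were counted from lists, to be read against the 5.56% of all genes called higher and the 10.0% called lower. None of 10 tested genes that recognise the U2 site passed (limma), and the gene with the smallest p was Cherp (log2 change 0.23; adjusted p = 0.0572). Of 31 other proteins and helicases of the particles, 3 were higher, among them the U5 GTPase Eftud2 (0.28; adjusted p = 0.0373), and none lower. Of 26 Prp19 and catalytic-step proteins, 2 were higher and 6 lower. The lower ones included Crnkl1 (-0.58; adjusted p = 0.0137) and the Prp19-complex proteins Bcas2 and Cdc5l (-0.38 and -0.33), and the higher ones Xab2 (0.36). Of 9 Lsm proteins, which ring the U6 particle and decay complexes, Lsm6 was lower (-0.38; adjusted p = 0.0241).

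Of 23 SR-related proteins, 3 were higher and 4 lower, and the exon-inclusion factor Tra2b was among the lower (-0.35; adjusted p = 0.0131). Of 12 kinases that phosphorylate SR proteins or their partners, Srpk3 and Dyrk1b were higher by 0.91 and 0.22 and Dyrk1a was lower by -0.42. Of 46 other RNA-binding regulators, 6 were higher and 6 lower. Cirbp, a cold-inducible RNA-binding protein, was higher by 1.42 ± 0.14 (adjusted p = 0.00526), and Sfpq and Ptbp1, the polypyrimidine-tract protein, were lower by -0.72 ± 0.11 (adjusted p = 0.00808) and -0.59 ± 0.10 (adjusted p = 0.01). Of 12 exon-junction and decay genes 1 was lower, the cap-binding Ncbp2 (-0.25), and of 15 genes of particle assembly Phax, a snRNA export adaptor, and the methyltransferase Prmt5 were lower by -0.64 and -0.67.

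Cell-type markers were read beside these results. Of 12 tested lung markers only the endothelial Pecam1 was lower, and the mean level of the list was 11.16 to 11.37 in KO and 11.46 to 11.62 in WT. Of 6 tested markers of dividing cells 1 was lower, Ube2c, with list means of 6.01 to 6.26 in KO and 6.08 to 6.47 in WT. Of 3 tested thymus markers Cd1d1 was higher, by 0.32 ± 0.09 (adjusted p = 0.0474), and the 5 markers on the array averaged 6.16 to 6.21 in KO and 5.98 to 6.07 in WT. The 5 markers of large airway and gland averaged 7.92 to 8.37 in KO and 7.52 to 7.89 in WT, and none of the 4 tested passed. None of the tested T and NK, B, erythroid, heart muscle, skeletal muscle, adipose or liver markers passed, and heart muscle averaged 10.16 to 10.89 in KO and 10.10 to 11.12 in WT. The part of cell makeup in the members' changes was not tested.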

How the data were processed

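The authors deposited 1 table of log2 values for 45101 probe sets on 7 arrays, 3 KO and 4 WT, made from biotin-labelled RNA. Per the submitters' processing notes the software was Affymetrix Expression Console, with both RMA and MAS5 listed and no version. Which of them made the values was not stated, and the log base was taken from their range. The number of arrays limits the precision.

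Each gene was represented by its brightest probe set. Genes at or above the 40th percentile of probe set means were tested with limma 3.58.1 under R 4.3.3 (lmFit, eBayes, genotype as the only term), and p-values were adjusted over all genes by the Benjamini-Hochberg method. The same was done for all probe sets over that level and for the differences between probe sets of a gene. The scripts were tested on simulated arrays.

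The members and lists were chosen with earlier results of these data known. Named members were those called, those with a called difference, and the extremes of each family, with up to 4 genes per list. Alternatives covered scaling, level filters, variance models, array weights, control gaps, a replicate block, mouse numbers, probe set choice and leaving out arrays. Figures used matplotlib 3.10.9 under Python 3.11.15.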

Additional observations from a re-analysis of the deposited data

Results flagged for a closer look

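Among 60 sets of 4 WT values examined, the levels of 20 named members and the 40 called differences, 6 had 1 WT array whose gap to the other 3 was large for the range of the 4. Chance gives about 1 in 20 for values not chosen by a test, which the called differences were. WT replicate 4 was the distant array in 5 of the 6, and these were differences between a probe set and the representative of its gene. It stood at -4.37 for 1456352_a_at of Sf3b2 (others -4.66 to -4.62), at -5.23 for 1460633_at of Prpf19 (others -5.70 to -5.65) and at -2.89 for 1419260_a_at of Snrpb (others -3.09 to -3.08). It also stood at -0.43 for 1417055_at of Sf3b6 (others all -0.45, a gap near the rounding of the deposited values) and at -2.14 for 1433830_at of Hnrnpa2b1 (others -2.25 to -2.24). WT replicate 1 stood at -3.69 for 1438807_at of Hnrnpr, where the others lay at -4.08 to -4.05.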

How the results depend on the processing

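A further quantile normalization gave 12 members higher and 2 lower (median log2 change 0.0503), with 8.98% and 6.79% of all genes (median 0.042). Cyclic loess gave 12 and 3 (median 0.0199), with 7.09% and 8.1% of all genes (median 0.018). Centring on array medians gave a median of -0.0675, against -0.035 over all genes. Without a level filter the median was -0.00833, against 0.038 over all genes. With the filter at the 60th percentile 32 of 72 differences passed, 44.4% against 42% over all genes. The members called there were 15, 26.8% against 19.6% of all genes. With the beta-actin or the Gapdh control gap as a term (limma), 0 members were higher and 0 lower, 0 probe sets were higher and 0 lower, and 0 differences passed; 13 and 16 members had an unadjusted p under 0.05 (23.2% and 28.6%, against 16.6% and 20.5% of all genes), as had 40 and 45 probe sets (26.8% and 30.2%, against 18.3% and 20.3%). The 12 called members all kept their direction. With the replicate number as a block, 1 member was higher and 1 lower, 3.57% in all against 2.79% of all genes called. Of the member probe sets 6 were higher, 4.03% against 1.44% of all, and 8 were lower. In that fit 20 differences passed (21.5%, against 23% over all genes). Same-numbered mice had correlations of 0.00331, -0.04 and 0.04 between their deviations, and differently numbered pairs ran from -0.29 to 0.265. With so few pairs these values cannot tell whether same-numbered mice shared more than a number. In the 5 mice with the lowest numbers 0 members were higher and 0 lower (17 at unadjusted p under 0.05, 30.4% against 21% of all genes), 0 probe sets were higher and 2 lower, 9 differences passed and the median was -0.00833. Averaging all probe sets of a gene gave 10 called members, 17.9% against 13.9% of all genes, and 3 of them were higher. Of all genes 4.08% were then higher and 9.8% lower. Of the 12 called members 6 stayed called and 11 kept their direction. The median was -0.0585 and, for Snrpd3, the log2 change was -0.0456. Without _s_at and _x_at sets 8 probe sets were higher and 11 of 34 differences passed (32.4%, against 29.4% over all genes). At unadjusted p under 0.01 and 1.5-fold, 0 members were higher and 0 lower. Leaving out 1 array gave 1 to 6 lower members, with 4.55% to 9.97% of all genes lower, and 10 to 23 lower probe sets. It gave 23 to 32 differences, 24.7% to 34.4% against 23.8% to 30.7% over all genes, and medians of -0.0467 to -0.0125. With 7 arrays, changes smaller than the spread between mice cannot be resolved.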

Other observations

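Of the 16 probe sets that name a member together with another gene, and so were left out of the counts, 2 were lower in KO. The set naming Hnrnpa3 and a gene model, 1451184_at, stood at 9.26, 9.08 and 8.99 in KO and at 9.57, 9.48, 9.55 and 9.65 in WT (log2 change -0.45; limma adjusted p = 0.00965), while the other 3 sets of that pair of names differed by -0.10 to 0.02 and did not pass. The set naming Snrpd1 and a gene model, 1416336_s_at, stood at 7.48, 7.59 and 7.4 in KO and at 7.81, 7.79, 7.95 and 8.06 in WT (log2 change -0.41; adjusted p = 0.0163). KO and WT arrays were apart in both. The brightest set naming Snurf and Snrpn, 1415895_at, had a log2 change of 0.18 (adjusted p = 0.273), with overlapping groups.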
